A study of Homo sapiens with 8 samples.

Results

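The genes described here make cholesterol and fatty acids. The set was fixed by name as 34 genes, of which 33 have a row among the 26830 gene symbols of the table. ACACA, which encodes acetyl-CoA carboxylase, has no row and enters only the promoter counts. The samples were labelled as 4 cultures of 1 Cas9-expressing clone of HEK293T, a human embryonic kidney line. Marker levels that bear on this label are given below. Guide RNAs were brought in by lentivirus: 1 culture carried the control guide (sgNS), and 3 carried guides against METTL16 (sgMETTL16-1, sgMETTL16-2 and sgMETTL16-3). All were selected in blasticidin (10 µg/ml) and puromycin (2 µg/ml) for at least 1 week and received cycloheximide (100 µg/ml, 5 min) before lysis. METTL16 is an RNA methyltransferase, and the series compared translation with and without guides against it, so each culture was sequenced as input RNA and as ribosome footprints (17 to 34 nt). Each guide has 1 culture, so the spread among sgMETTL16 cultures holds differences between guides as well as between cultures.

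Cells build cholesterol from acetyl-CoA through mevalonate, farnesyl diphosphate, squalene and lanosterol, and build fatty acids from the same acetyl-CoA. The transcription factors SREBP-1 and SREBP-2 (genes SREBF1 and SREBF2) turn on most of these enzymes. SCAP escorts SREBPs out of the endoplasmic reticulum when sterols are low, and INSIG1 holds them back when sterols are high. Liver cells are known for high activity of both pathways.

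Levels are TPM, a share of a library's transcripts after scaling for transcript length; counts and read totals were not used, so the depth is unknown. In all 4 inputs 11 of 12 hepatocyte markers reached 10 TPM, among them ALB (354 to 1668 TPM) and HNF4A (77.7 to 102 TPM), the liver's albumin and a liver transcription factor. Of 13 HEK293 markers with a row, 6 were under 1 TPM in every input, NEFL, NEFM and VIM among them at 0, although VIM had footprints in all 4 libraries (43.3 to 188 TPM). The other 7 reached 1 TPM in every input, led by KRT8 (354 to 796 TPM) and KRT18 (309 to 537 TPM). Hepatocyte markers were thus abundant in cells labelled as a kidney line. Among the HEK293 markers only KRT8 and KRT18 reached 10 TPM in every input. ENO2, NES, CDH2, LIN28B and BMI1 ran from 2.27 to 12.06 TPM. For METTL16 itself, input RNA measured 5.31 TPM in sgNS against 4.72, 5.25 and 4.16 TPM under the 3 guides, with footprints of 19.76 TPM in sgNS and 0 in the other libraries. Footprint libraries were sparse: each held footprints for 49.3% to 72.2% of genes with a mean input of 10 TPM or more. An entry at 0, for a gene at this input level or for METTL16 below it, therefore cannot be told apart from a low level. The protein was not measured here. Protein-coding genes held 20.3% of TPM in the sgNS input, 25.4% in sgMETTL16-1, 26.3% in sgMETTL16-2 and 20.1% in sgMETTL16-3. In the footprints they held 26.8% to 28.2% in 3 libraries and 11.9% in sgMETTL16-3. The summed input TPM of the hepatocyte markers was 3752 in sgNS, 6825 in sgMETTL16-1, 7099 in sgMETTL16-2 and 4338 in sgMETTL16-3. That of the HEK293 markers was 693, 1190, 1345 and 1241 TPM in the same order. KRT8 (354, 610, 796 and 777 TPM) and KRT18 (309, 537, 499 and 432 TPM) made up most of these sums. No reference cells were measured here, so whether KRT8 and KRT18 mark kidney or liver cells cannot be told from these levels. The part of the hepatocyte and HEK293 markers, and that of library make-up, in the results below was not tested.

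In the input RNA, both branches were well represented. SCD, the desaturase that makes oleate, was the most abundant member at 306 TPM in sgNS and 438, 339 and 257 TPM in sgMETTL16-1, sgMETTL16-2 and sgMETTL16-3. Fatty acid synthase (FASN) stood at 133 TPM in sgNS and 174, 152 and 146 TPM in the same cultures, and ACLY, which cuts citrate to acetyl-CoA, at 84.3 TPM against 128, 118 and 96.6 TPM. These 3 had mean input levels of 100 TPM or more. Another 23 members lay between 10 and 100 TPM, and IDI1, HSD17B7, SC5D, STARD4 and ELOVL6 between 1 and 10 TPM. INSIG1 was at 0.01 TPM in sgNS and at 0 in the other inputs, although it had footprints. ME1, the cytosolic malic enzyme, was listed at 0 in all 8 libraries.

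**Figure D1:**
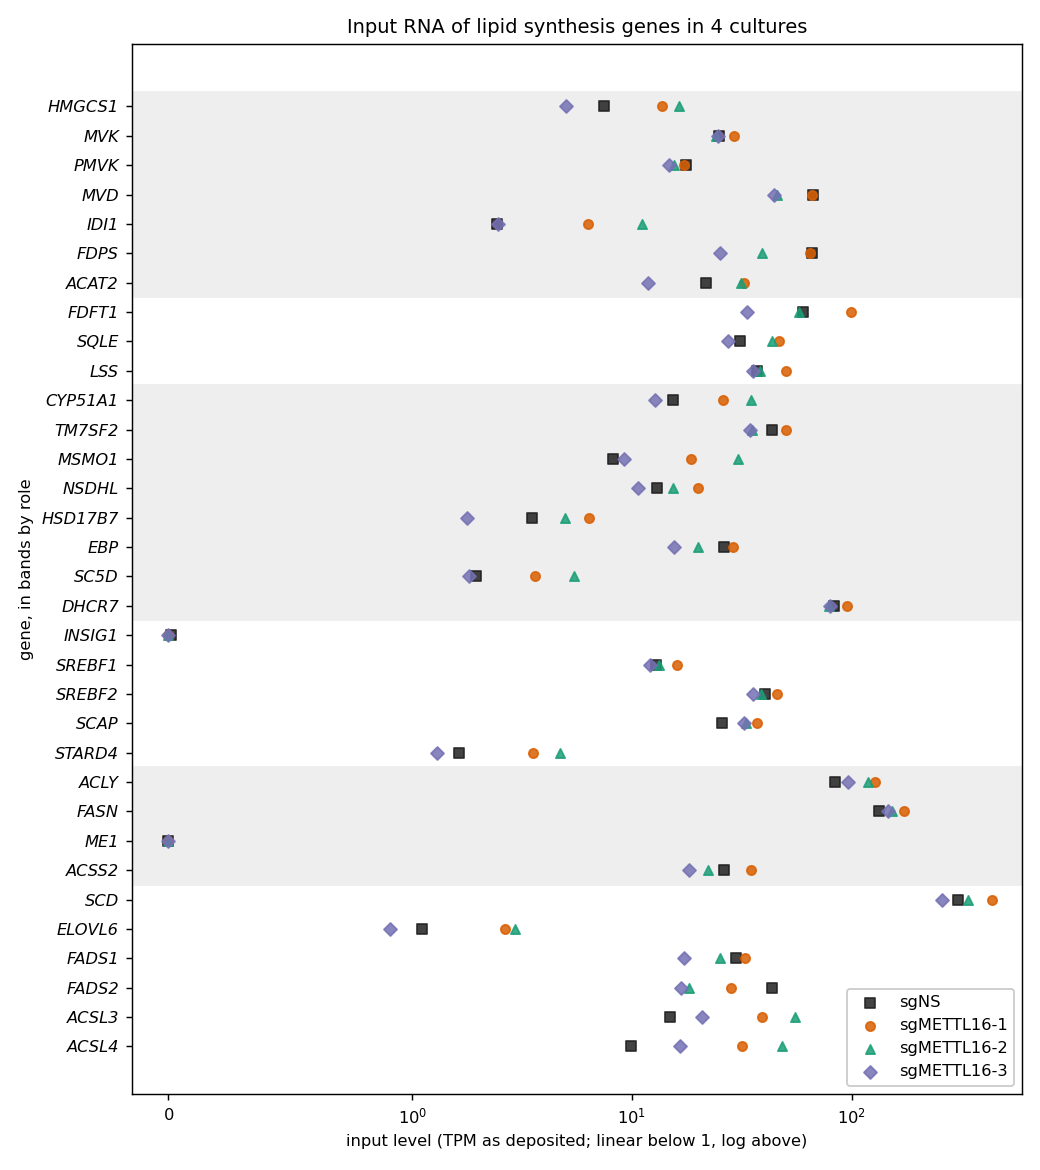
Input level in TPM as deposited (linear below 1, log above) of the 33 genes, in bands by role; each symbol is 1 culture. SCD lies furthest to the right at 257 to 438 TPM, and INSIG1 and ME1 lie at or near 0.

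Summed over the 33 genes, the input held 1259 TPM in sgNS and 1687, 1420 and 1062 TPM in sgMETTL16-1, sgMETTL16-2 and sgMETTL16-3 (1389 ± 314, SD, n = 3). The sgNS sum lay inside the range of the sgMETTL16 sums. As a share of protein-coding TPM, the genes held 0.621% in sgNS and 0.663%, 0.539% and 0.529% in the 3 sgMETTL16 inputs. The summed levels of all 6 roles were highest in sgMETTL16-1 and, but for the SREBP and acetyl-CoA groups, lowest in sgMETTL16-3.

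**Figure D2:**
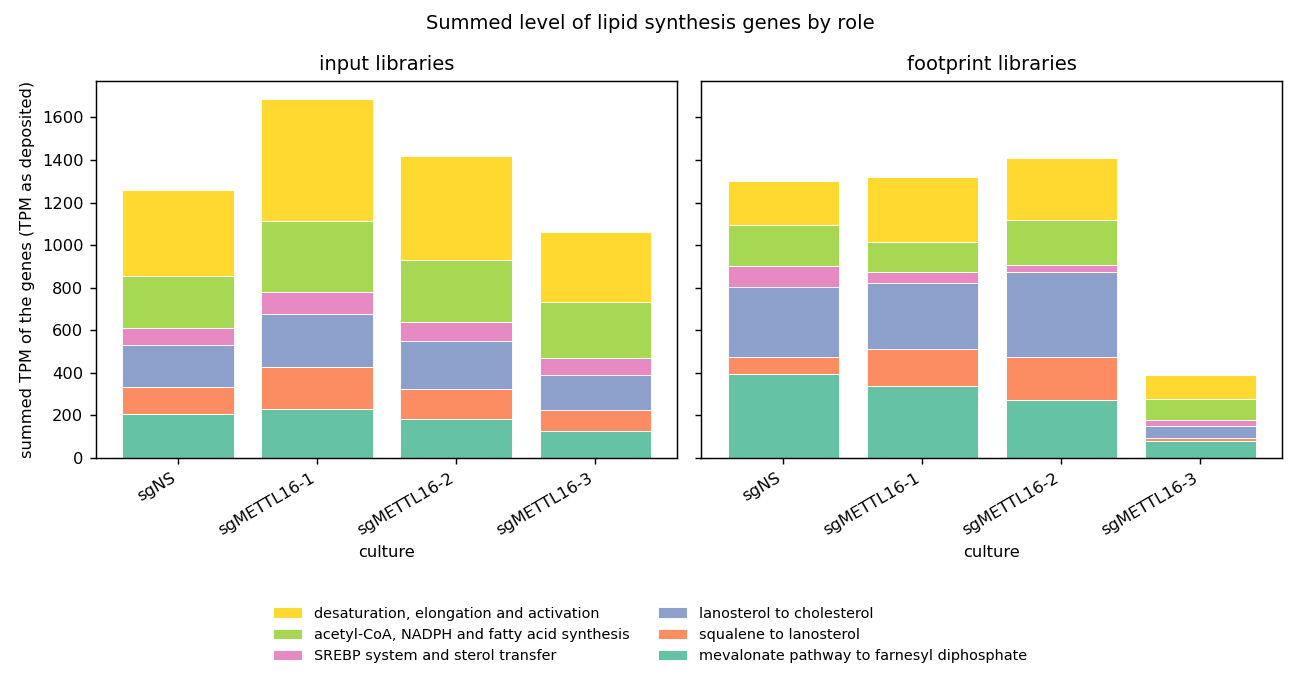
Summed TPM as deposited of the genes in 6 roles, stacked, for each culture in the input (left) and the footprints (right). The footprint stack of sgMETTL16-3 reaches 390 TPM, while the other footprint stacks reach 1302 to 1408 TPM.

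The comparison of input RNA between sgMETTL16 and sgNS asked which transcripts changed in abundance. It was fitted with limma on log2(TPM + 1), with each library centred on its median gene, so changes are relative to that gene and understate those of low genes. The 1 member called was FADS2, which was lower. A count of 1 among 31 is near the share over all genes, given below. FADS2 (chr11:61816203-61867354, GRCh38.p14) encodes the delta-6 desaturase that starts the synthesis of long polyunsaturated fatty acids. FADS2 input RNA was at 43.25 TPM in sgNS, with 28.28, 18.2 and 16.73 TPM in sgMETTL16-1, sgMETTL16-2 and sgMETTL16-3, and every sgMETTL16 culture lay below the control. Its log2 change was -1.57 (SE 0.39, limma adjusted p = 0.00321). Of the 31 members tested, 1 was called lower and none higher, beside 1.25% of 10967 genes called lower and 1.58% called higher (2.83% in all). With an unadjusted p under 0.05 there were 6 members, beside 11.2% of all genes. FADS2 missed the threshold on TPM as deposited (log2 change -1.04, limma adjusted p = 0.306) and without sgMETTL16-1 (-1.74, limma adjusted p = 0.174), and over all 13 alternatives its adjusted p ran from 5.98e-06 to 0.306 with 11 passing.

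As a group, the members lay below the median gene. Their median log2 change was -0.39, beside -0.06 over all tested genes, and 25 of the 31 (80.6%) were below 0, beside 57.0% of all tested genes. The difference of the medians, -0.33, shrank to -0.062 with a pseudocount of 10 and to -0.044 with no filter on low levels. Relative to all genes, the members' median was -0.03 in sgMETTL16-1, -0.46 in sgMETTL16-2 and -0.35 in sgMETTL16-3. After centring, 18 members were below sgNS in all 3 sgMETTL16 libraries and 2 above it, beside 34.2% and 23.4% of all genes. On TPM as deposited, 4 members were below sgNS in all 3 (FADS2, FDPS, MVD and PMVK) and 7 above (ACLY, ACSL3, ACSL4, FASN, IDI1, MSMO1 and SCAP), beside 5.37% and 64.1% of all genes. All 3 cultures share the 1 control library, so these counts are not 3 independent comparisons. On that scale the median of all genes moved to 0.46 and that of the members to 0.14.

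**Figure D3:**
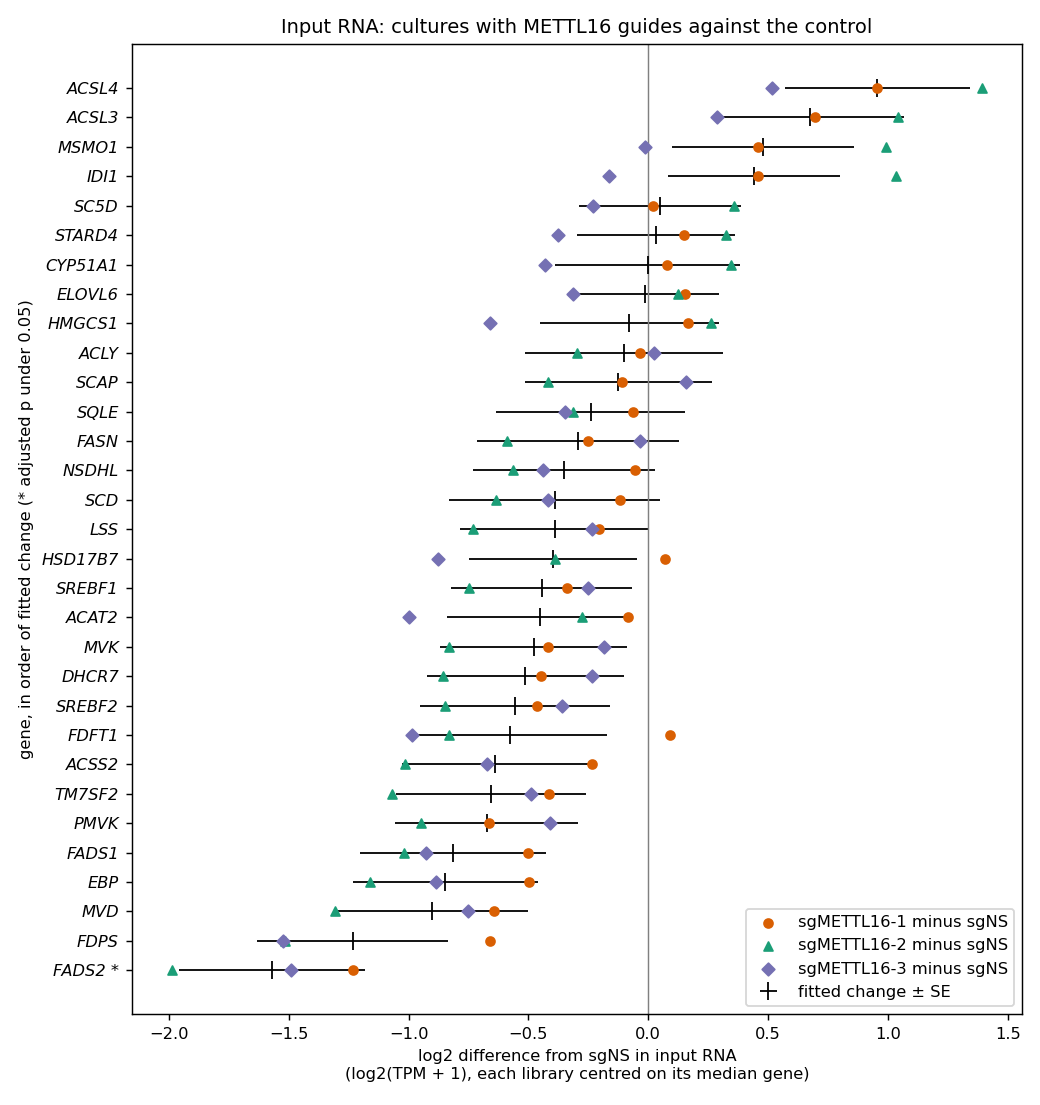
Log2 difference of each sgMETTL16 culture from sgNS in the input (symbols) and the fitted change with its standard error (bars) for 31 genes, after centring. FADS2, the only gene marked as passing, is at the bottom at -1.57, and ACSL4 is at the top at 0.95.

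Among the 7 enzymes that lead from acetyl-CoA units to farnesyl diphosphate, none passed (median log2 change -0.48). FDPS (chr1:155308866-155320665), which makes farnesyl diphosphate, came closest. FDPS input RNA was at 66.04 TPM in sgNS, with 64.81, 39.27 and 25.25 TPM in sgMETTL16-1, sgMETTL16-2 and sgMETTL16-3. Its log2 change was -1.23 (SE 0.40, limma adjusted p = 0.0652), and it passed in 6 of 13 alternatives. Before centring, sgMETTL16-1 was close to the control and the other cultures were below it. MVD, which makes isopentenyl diphosphate, was at 66.64 TPM in sgNS and 66.21, 45.97 and 44.12 TPM in sgMETTL16 (log2 change -0.90). Before centring the first guide was again level with the control, and after it all 3 guides were below. The kinases PMVK (-0.67) and MVK (-0.48), the thiolase ACAT2 (-0.45) and the HMG-CoA synthase HMGCS1 (-0.08) had smaller fitted changes. IDI1, the isomerase of isopentenyl diphosphate, was at 2.44 TPM in sgNS and 6.34, 11.11 and 2.45 TPM in sgMETTL16 (log2 change 0.44). Here sgMETTL16-1 and sgMETTL16-2 were high, and sgMETTL16-3 was level with sgNS. FDPS, SCD and HSD17B7 have pseudogene copies in the genome that can share reads, so their levels are less certain.

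From squalene to lanosterol, FDFT1 (squalene synthase, -0.57), LSS (lanosterol synthase, -0.39) and SQLE (squalene epoxidase, -0.24) did not pass. FDFT1 differed most among guides, at 99.6 TPM in sgMETTL16-1, 57.85 in sgMETTL16-2 and 33.55 in sgMETTL16-3, with sgNS at 59.84 TPM.

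None of the 8 later enzymes passed either (median log2 change -0.38). EBP, a sterol isomerase, was at 26.17 TPM in sgNS and 28.87, 19.9 and 15.55 TPM in sgMETTL16 (log2 change -0.85, limma adjusted p = 0.339). MSMO1, which oxidises the C4 methyl groups of sterols, was at 8.17 TPM in sgNS and 18.53, 30.34 and 9.22 TPM in sgMETTL16 (log2 change 0.48). As for IDI1, and both before and after centring, the first pair of guides was high and sgMETTL16-3 lay near the control. The remaining fitted changes were -0.66 for the sterol reductase TM7SF2, -0.51 for DHCR7, which completes cholesterol, -0.40 for HSD17B7, -0.35 for NSDHL, 0.00 for the lanosterol demethylase CYP51A1 and 0.05 for the desaturase SC5D.

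None of the regulators passed. SREBF2 was at 40.56 TPM in sgNS and 45.81, 38.64 and 35.43 TPM in sgMETTL16 (log2 change -0.56, limma adjusted p = 0.704). SREBF1 was at 12.9 TPM and 16.05, 13.25 and 12.15 TPM (-0.45), and SCAP at 25.59 TPM and 37.22, 33.17 and 32.35 TPM (-0.12). Before centring, SREBF1 and SREBF2 in sgNS lay within the range of the sgMETTL16 cultures, and SCAP in sgNS was below all of them. After centring, sgNS was above all 3 for SREBF1 and SREBF2. STARD4, a sterol carrier, was at 0.03.

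Fatty acid synthesis enzymes did not pass: the fitted changes were -0.10 for ACLY, -0.29 for FASN and -0.64 for ACSS2, which makes acetyl-CoA from acetate. Next to FADS2, the delta-5 desaturase FADS1 was at 29.84 TPM in sgNS and 32.81, 25.18 and 17.23 TPM in sgMETTL16 (log2 change -0.82, limma adjusted p = 0.381). SCD (-0.39) and the elongase ELOVL6 (-0.01) did not pass either. The acyl-CoA synthetases, which activate fatty acids, stood at the other end. ACSL4 (chrX:109641335-109733257), which prefers arachidonate, was at 9.86 TPM in sgNS and 31.69, 48 and 16.47 TPM in sgMETTL16, above the control in every culture (log2 change 0.95, SE 0.39, limma adjusted p = 0.228). ACSL3 was at 14.94 TPM in sgNS and 39.07, 55.49 and 20.87 TPM in sgMETTL16 (log2 change 0.68, limma adjusted p = 0.558). ACSL4 passed in 4 of 13 alternatives, one of them the fit without sgMETTL16-3 (1.17, limma adjusted p = 0.00345), and ACSL3 in none.

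The guides did not give the same picture. After centring, in 14 of 31 members (45.2%) both sgMETTL16-1 and sgMETTL16-2 lay above sgMETTL16-3, beside 29.3% of all tested genes. In 8 members (25.8%) sgMETTL16-3 was the highest of the 3, beside 47.4% of all genes. Without centring the counts were 29 (93.5%) beside 82.5% of all genes, and none beside 4.59%. Library make-up moved with this order, and its part was not tested: the inputs of sgMETTL16-1 and sgMETTL16-2 had 11299 and 11657 genes at 1 TPM or more, against 9826 in sgNS and 10231 in sgMETTL16-3.

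Promoter sequences show what regulatory letters these genes carry. RefSeq promoters (GRCh38.p14, 250 bases before to 50 after the start site) matched 30 of the 34 genes. The SREBP core TCACNCCAC, on either strand, was in 1 of the 30 (3.33%), SREBF2 itself, and in 1.17% of 15843 protein-coding promoters. CCAAT, the letters bound by NF-Y, a partner of SREBPs, was in 19 (63.3%) beside 36.4% of all. GGGCGG, the Sp1 letters, was in 28 (93.3%) beside 58.5%, and the E-box CACGTG was in 4 (13.3%) beside 8.88%. The members' promoters were also richer in G and C (median 68.5% beside 62.7%), which moves with the Sp1 letters. The background held all protein-coding promoters whatever their expression, and promoters of expressed genes alone were not compared. Below are the 250 bases before the start site of SREBF2 (chr22:41832855-41833104, plus strand), which holds the SREBP core, and, chosen after their values were seen, of FADS2 (chr11:61815953-61816202, plus strand), FDPS (chr1:155308616-155308865, plus strand) and ACSL4 (chrX:109733258-109733507, minus strand), the genes with the lowest and highest changes. Capitals mark matches of the 4 motifs on either strand; overlapping matches run together.
SREBF2: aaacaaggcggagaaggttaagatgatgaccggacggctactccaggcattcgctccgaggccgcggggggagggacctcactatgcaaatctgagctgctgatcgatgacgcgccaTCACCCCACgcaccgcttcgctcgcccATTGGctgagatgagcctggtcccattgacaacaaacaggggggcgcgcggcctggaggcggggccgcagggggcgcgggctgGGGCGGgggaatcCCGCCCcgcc
FADS2: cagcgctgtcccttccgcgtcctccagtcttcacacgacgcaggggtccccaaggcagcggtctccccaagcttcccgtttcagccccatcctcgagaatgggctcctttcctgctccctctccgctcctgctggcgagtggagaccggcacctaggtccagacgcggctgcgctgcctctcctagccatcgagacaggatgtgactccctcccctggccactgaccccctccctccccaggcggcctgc
FDPS: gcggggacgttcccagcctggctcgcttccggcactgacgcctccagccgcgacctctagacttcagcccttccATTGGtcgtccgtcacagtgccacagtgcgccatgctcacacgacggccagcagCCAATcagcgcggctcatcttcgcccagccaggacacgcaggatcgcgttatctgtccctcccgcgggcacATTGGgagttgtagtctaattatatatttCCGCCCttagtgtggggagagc
ACSL4: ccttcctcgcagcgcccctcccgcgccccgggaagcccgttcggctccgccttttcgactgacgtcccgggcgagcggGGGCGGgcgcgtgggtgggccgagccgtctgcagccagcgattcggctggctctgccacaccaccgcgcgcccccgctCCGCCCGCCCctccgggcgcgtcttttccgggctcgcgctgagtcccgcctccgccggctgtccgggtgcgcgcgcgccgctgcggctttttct
The SREBF2 core TCACCCCAC starts 133 bases before the start site, and the same window holds 1 CCAAT match and 2 Sp1 matches. FADS2 has none of the 4 motifs in this window, FDPS has 3 CCAAT matches and 1 Sp1 match, and ACSL4 has 3 Sp1 matches. A match describes the letters and not binding. Only exact matches within the promoter window were searched, so a promoter without a match may still hold a variant or more distant site.

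Genes around the pathway were mostly without calls in the input. Of 14 further genes of sterol synthesis and its prenyl branches none passed (median log2 change -0.16), with TMEM97 at -0.74 and EBPL at -0.47. None of 11 genes of SREBP processing passed (median 0.09), the COPII coat gene SEC23A being at 0.59, INSIG2 at 0.38 and PAQR3 at 0.31. Of 12 tested genes of sterol uptake and transfer, 1 was lower and none higher (median -0.20), and STARD3 was at -0.55 and GRAMD1A at -0.44. None of 11 efflux, LXR and ester genes passed (median -0.14), with SOAT2, which esterifies cholesterol, at -0.91, the LXR gene NR1H2 at -0.32 and the transporter ABCG5 at -0.23.

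Of 24 other genes of fatty acid synthesis and elongation none passed (median -0.08), and those with the smallest p-values were ACSL5, MLXIPL and ACSL1. ACSL5 was at 5.01 TPM in sgNS and 17.11, 21.69 and 11.96 TPM in sgMETTL16 (log2 change 1.01, limma adjusted p = 0.159). ACSL1 was at 2.94 TPM in sgNS and 9.72, 13.16 and 6.56 TPM in sgMETTL16 (0.88, limma adjusted p = 0.258). MLXIPL, the carbohydrate-responsive factor ChREBP, was at -1.01. None of 16 glycerolipid genes passed (median 0.04), with AGPAT1 at -1.07, DGAT1 at -0.80 and the droplet protein PLIN2 at 0.76. None of 25 genes of fatty acid oxidation and ketone bodies passed (median 0.02), with CPT1A, which brings fatty acids into mitochondria, at 0.72, ETFB at -0.78 and ACADM at -0.35.

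Ribosome footprints of the members were sparse. Of the 33 genes, 20 were above 0 in sgNS, 25 in sgMETTL16-1, 29 in sgMETTL16-2 and 14 in sgMETTL16-3. Among the 26 members with a mean input of 10 TPM or more, 65.4%, 73.1%, 92.3% and 46.2% had footprints in these libraries, beside 50.8%, 63.8%, 72.2% and 49.3% of all 4195 genes at that level. In 12 members footprints were above 0 in every library, and in PMVK, TM7SF2 and ME1 in none. With the depth unknown, an entry at 0 cannot be told apart from a low level. Summed footprints were 1302 TPM in sgNS and 1320, 1408 and 390 TPM in sgMETTL16-1, sgMETTL16-2 and sgMETTL16-3 (1039 ± 564, SD, n = 3), so the low value belonged to 1 culture.

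**Figure D4:**
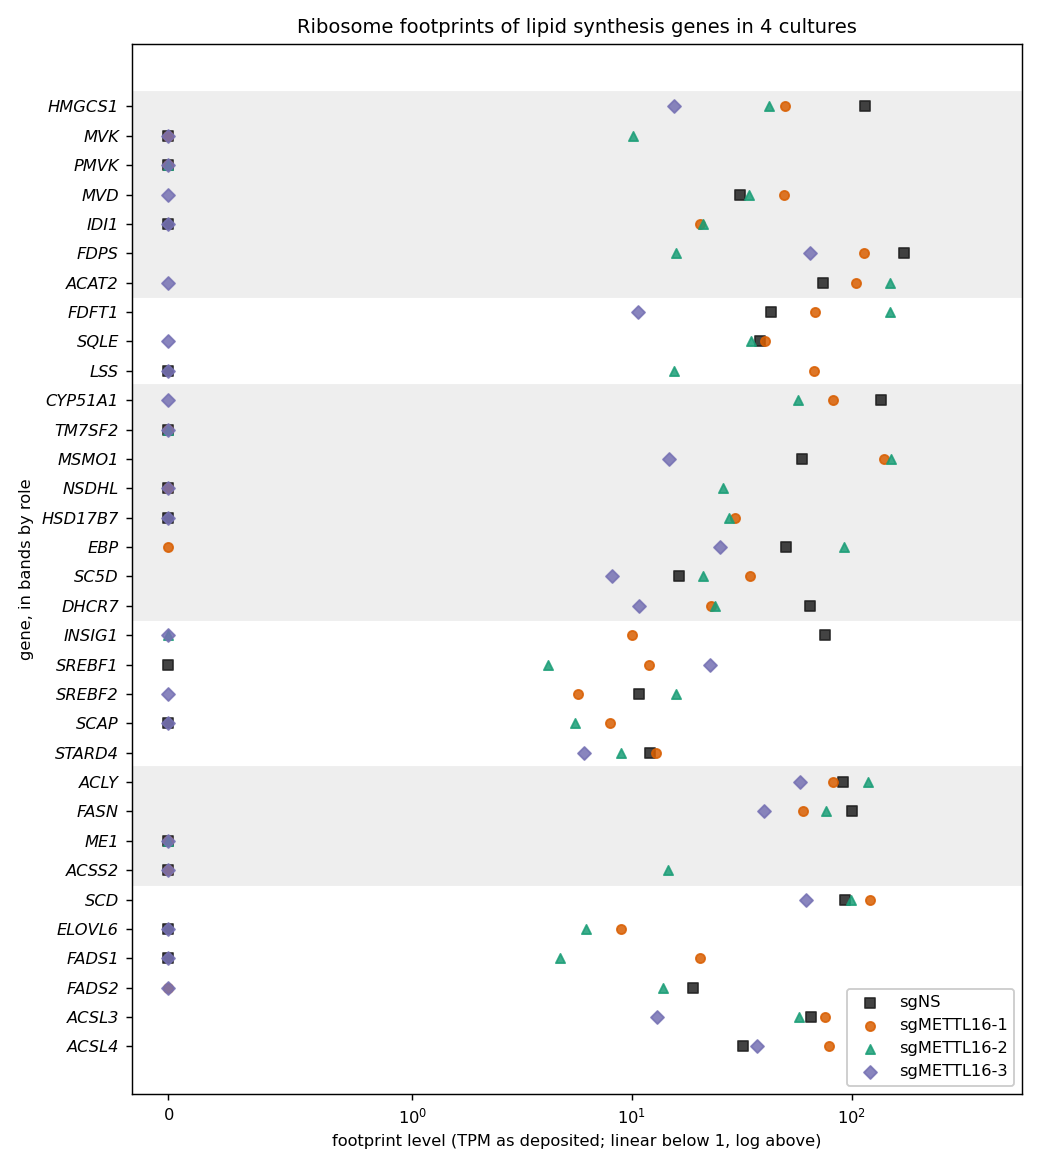
Footprint level in TPM as deposited (linear below 1, log above) of the 33 genes, in bands by role; each symbol is 1 culture. Symbols at 0 are most frequent for sgMETTL16-3, where 14 genes were above 0.

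The footprint comparison asked which mRNAs carried more or fewer ribosomes. No member of 30 tested passed with limma after scaling libraries by their median ratio, and 1 had an unadjusted p under 0.05. The unadjusted share over all genes was 12.4%. In the same fit 6.54% of 9297 genes were called, 0.699% higher and 5.84% lower, and all but 1 of these 608 were at 0 in sgNS or in all 3 sgMETTL16 footprint libraries. In a fit limited to the 1870 genes above 0 in all 4 libraries, chosen after seeing the data, limma called 0% of genes and none of the 12 members. ACSL4 had the smallest p of them (unadjusted 0.0489): its footprints were 31.98 TPM in sgNS and 78.85, 109.38 and 37.21 TPM in sgMETTL16, above the control in every culture (log2 change 1.61, SE 0.79, limma adjusted p = 0.944). HMGCS1 footprints were 114.74 TPM in sgNS and 49.6, 42.04 and 15.6 TPM in sgMETTL16, all below the control (-1.27), and DHCR7 footprints were 64.99 TPM and 22.88, 23.8 and 10.8 TPM (-1.25). FDPS footprints were 173.31 TPM in sgNS and 114.35, 15.85 and 64.87 TPM in sgMETTL16 (-1.24). The other 8 had log2 changes between -0.27 (FASN) and 0.75 (MSMO1), with ACSL3 at -0.20, STARD4 at 0.08, ACLY at 0.41, SCD at 0.50, SC5D at 0.66 and FDFT1 at 0.70. STARD4, ACLY and SCD were below 0 on TPM as deposited.

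Footprints of the regulators were missing from at least 1 library each. INSIG1 was at 75.93 TPM in sgNS, 10.03 TPM in sgMETTL16-1 and 0 in the others. SREBF1 had no footprints in sgNS, against 12.02, 4.17 and 22.68 TPM in the sgMETTL16 libraries. SREBF2 was at 10.8, 5.7, 15.83 and 0 TPM from sgNS to sgMETTL16-3. FADS2 footprints were at 18.94 TPM in sgNS, 13.87 TPM in sgMETTL16-2 and 0 in the other libraries, too few to follow its input.

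Translation efficiency, the footprint to input ratio, is the question of the series. Its test asks, with all 8 libraries in 1 model, whether the footprint change exceeds the input change. No member of 29 passed with limma, beside 0.812% of 8002 genes (0.587% higher and 0.225% lower). With an unadjusted p under 0.05 there was 1 member, SREBF1, beside 11.7% of all genes. SREBF1 footprints were at 0 in sgNS, so its change rests on an entry that cannot be told apart from a low level. With the culture as a block, 0 of all genes passed instead of 65, and again no member. Among the 12 members with footprints throughout, log2 changes ran from -1.20 (HMGCS1) to 1.30 (FDFT1), with standard errors of 0.52 to 1.65. ACSL3 (-0.87), DHCR7 (-0.71) and STARD4 (-0.07) were below 0. FDPS (0.02), FASN (0.06), MSMO1 (0.26), SC5D (0.50), ACLY (0.55), ACSL4 (0.65) and SCD (0.92) were above it. These directions depend on the scaling: on TPM as deposited all 7 of the latter were below 0, among them SCD at -0.18 and ACSL4 at -0.41, and the median of the 29 members went from 0.50 to -0.56 (all genes, 0.63 to -0.04). A p that misses the threshold with 1 control culture does not show that translation was alike.

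The footprint to input ratio differed widely among members, as the plot of ratios shows. SCD had ratios of 0.31, 0.28, 0.29 and 0.24 from sgNS to sgMETTL16-3, a narrow range although its input ran from 257 to 438 TPM. ACSL4 had ratios of 3.24, 2.49, 2.28 and 2.26, and SC5D of 8.43, 9.54, 3.83 and 4.48. DHCR7 had ratios of 0.78, 0.24, 0.30 and 0.14, and FDPS of 2.62, 1.76, 0.40 and 2.57. So SCD was below 1 and ACSL4 and SC5D above 1 in every culture, while FDPS fell on both sides. A gene with low input shows footprints in every library only if they are high, so ratios of low genes are pushed up by this choice.

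**Figure D5:**
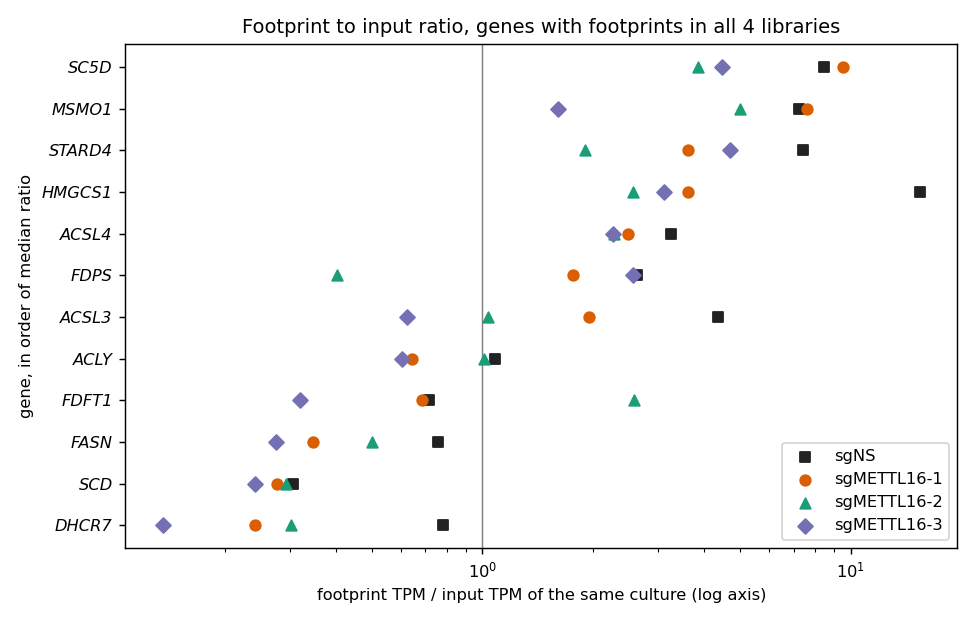
Footprint TPM over input TPM of the same culture (log axis) for the 12 genes with footprints in every library, in order of the median. DHCR7, SCD and FASN lie below 1 in all cultures, and SC5D, MSMO1, STARD4, HMGCS1 and ACSL4 lie above 1.

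Footprints against input were also compared with limma as 4 libraries against 4. Of 26 members with a mean input of 10 TPM or more, 15 were called lower and none higher in footprints, beside 62.4% and 3.31% of 4195 genes (65.7% in all), so the share is near the background. With an unadjusted p under 0.05 there were 16, beside 70.7% of all genes. Their median log2 difference was -2.43, beside -2.76 over all genes, and 2170 of the 2617 genes called lower were at 0 in at least 1 footprint library. Among genes above 0 in all 8 libraries, chosen after seeing the data, 4 of the 12 members were higher (SC5D 1.45, MSMO1 1.21, HMGCS1 1.18 and STARD4 0.84) and 5 lower (SCD -2.78, DHCR7 -2.64, FASN -2.13, ACLY -1.25 and FDFT1 -1.24). In that fit limma called 29.3% of 1838 genes higher and 30.7% lower (60.0% in all), so these shares are not particular to the members. FDPS (-0.37), ACSL3 (-0.33) and ACSL4 (0.38) did not pass. The highest mean input among the 4 higher genes was 16.6 TPM (MSMO1), and the lowest among the 5 lower genes was 62.7 TPM (FDFT1). In the fit over 4195 genes, SCD, DHCR7, FASN, ACLY and FDFT1 were also below 0 with median-ratio scaling, and they were above 0 when the median gene was the reference (SCD at 0.052, ACLY at 1.58), so their direction depends on the scaling.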

How the data were processed

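The deposited values are TPM for each gene symbol in 8 libraries, 1 column a library. The authors used RSEM 1.2.31, STAR (no version is named) and build GRCh38, per the submitters' processing notes. Single-end reads were 51 bases long, per the labels' protocols. TPM sums to a fixed total in each library, so it gives shares, and depth cannot be read from it.

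Values of log2(TPM + 1) were fitted in R 4.3.3 with limma 3.58.1, an intensity trend, Benjamini-Hochberg adjustment over all tested genes and a threshold of 0.05. Genes needed a mean of 1 TPM in the libraries of a comparison, or 10 TPM of input where footprints were set against input. Inputs were centred on the median gene and footprints scaled by median ratio. With 1 sgNS culture, its spread was taken to equal that of the sgMETTL16 cultures. In the input fit the prior degrees of freedom were infinite, so a gene's spread came from the trend alone. Scripts were tested on simulated data. Alternatives changed the pseudocount, scaling, filter, trend, gene types and cultures.

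Input and footprint libraries of 1 guide came from the same culture, per the labels. Deviations from the group means correlated between them at 0.046, -0.0017 and 0.025 (Pearson r, a description over 8002 genes). Input and footprint libraries of different guides correlated at -0.062 to 0.036, so these values do not show the pairing. The members and lists were chosen with earlier results of these data known. Every member was reported by level. Changes were printed for all members tested in the input, for members with footprints in all 4 libraries otherwise, and for up to 3 genes of each other list by smallest p. Some genes that this rule names are counted but not reported here.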

Additional observations from a re-analysis of the deposited data

Results flagged for a closer look

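In 50 groups of 4 libraries, 2 held a value far from the other 3. Chance gives about 1 group in 20, so this count is near what chance gives. The footprint to input ratio of HMGCS1 was 15.4 in sgNS, against 3.61, 3.11 and 2.56 in sgMETTL16-1, sgMETTL16-3 and sgMETTL16-2. Summed footprints of all members were 390 TPM (389.78) in sgMETTL16-3, against 1302 to 1408 TPM in the other footprint libraries, and protein-coding genes held 11.9% of TPM in that library.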

How the results depend on the processing

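Of the members tested in the input, 1 was called; the count was 3 with a pseudocount of 10, quantile normalization or a filter 10 times higher, 2 with scaling by median ratio or no trend, 0 on TPM as deposited, and 0 to 4 leaving out 1 culture. Over all 10967 genes, a pseudocount of 10 gave 240 higher and 127 lower, and quantile normalization 337 and 195. Scaling by median ratio gave 248 and 139, and no trend 213 and 173. The filter 10 times higher gave 209 and 158 of 4195 genes, with 26 members tested. The members' median minus that of all genes was -0.33, -0.062 with a pseudocount of 10, -0.044 with no filter and -0.44 to -0.23 leaving out 1 culture. In footprints against input, 15 of 26 members were called, all lower. The count was 3 of 3 tested with a filter 10 times higher (all lower), beside 31 higher and 238 lower of 387 genes. With centring on the median gene it was 5 of 26 (4 higher, 1 lower), beside 373 and 95 of 4195 genes. Among genes above 0 in every library it was 9 of 12 tested (4 higher, 5 lower), beside 538 and 565 of 1838. No member was called in the footprint or translation efficiency comparison under any alternative run, the replicate block (0 members) included; in footprints against input the replicate block called 15. Over all genes in the input, 173 were higher and 137 lower, 22 and 1 on TPM as deposited, 66 and 44 without sgMETTL16-1, 273 and 391 without sgMETTL16-3. In footprints 65 were higher and 543 lower, and 0 with centring, with no trend or without any 1 culture. In translation efficiency 65 were called, from 0 (centring, the block or without any 1 culture) to 643 higher and 613 lower (no filter). The cause of these shifts was not tested. On TPM as deposited, the sign in the input turned for ACAT2 (0.075), ACLY (0.43), CYP51A1 (0.53), DHCR7 (0.016), ELOVL6 (0.52), FASN (0.24), HMGCS1 (0.45), HSD17B7 (0.13), LSS (0.14), MVK (0.050), NSDHL (0.18), SCAP (0.40), SCD (0.14), SQLE (0.29), SREBF1 (0.084). With a pseudocount of 10, the sign in the input turned for ACLY (0.16), CYP51A1 (0.16), HMGCS1 (0.046), SC5D (-0.046), SCAP (0.084), SQLE (0.0067), STARD4 (-0.058). With quantile normalization, the sign in the input turned for ACLY (0.079), CYP51A1 (0.11), ELOVL6 (0.028), SCD (0.092). With no filter, the sign in the input turned for ACLY (0.038), CYP51A1 (0.14), ELOVL6 (0.13), HMGCS1 (0.062), SCAP (0.016). With a filter 10 times higher, the sign in the input turned for CYP51A1 (0.090), HMGCS1 (0.014). Over genes above 0 in every library, the sign in the input turned for CYP51A1 (0.0090). With a pseudocount of 0.1, the sign in the input turned for ELOVL6 (0.14). With scaling by median ratio, the sign in the input turned for ELOVL6 (0.16). Over protein-coding genes, the sign in the input turned for ELOVL6 (0.084). In the input, leaving out 1 culture turned the sign of CYP51A1 (-0.17 to 0.21), ELOVL6 (-0.094 to 0.14), HMGCS1 (-0.24 to 0.21), SC5D (-0.10 to 0.19), SCAP (-0.27 to 0.028), STARD4 (-0.11 to 0.24). On TPM as deposited, the sign in the footprint comparison turned for ACLY (-0.13), SCD (-0.045), STARD4 (-0.41). With centring on the median gene, the sign in the footprint comparison turned for ACLY (-2.26), ACSL4 (-1.05), FDFT1 (-1.95), MSMO1 (-1.91), SC5D (-1.98), SCD (-2.17), STARD4 (-2.54). With quantile normalization, the sign in the footprint comparison turned for STARD4 (-0.26). In the footprint comparison, leaving out 1 culture turned the sign of ACSL3 (-0.51 to 0.43). On TPM as deposited, the sign in translation efficiency turned for ACLY (-0.56), ACSL4 (-0.41), FASN (-1.05), FDPS (-1.09), MSMO1 (-0.79), SC5D (-0.43), SCD (-0.18). With quantile normalization, the sign in translation efficiency turned for FASN (-0.25), FDPS (-0.38). With centring on the median gene, the sign in translation efficiency turned for STARD4 (0.32). In translation efficiency, leaving out 1 culture turned the sign of FASN (-0.065 to 0.32), FDPS (-0.44 to 0.90), MSMO1 (-0.099 to 0.97), STARD4 (-0.20 to 0.31). With centring on the median gene, the sign in footprints against input turned for ACLY (1.58), ACSL3 (2.49), DHCR7 (0.18), FASN (0.70), FDFT1 (1.58), FDPS (2.45), MVD (0.032), SCD (0.052). On TPM as deposited, the sign in footprints against input turned for ACSL3 (0.60), FDPS (0.56). With quantile normalization, the sign in footprints against input turned for ACSL3 (0.58), FDPS (0.56). In footprints against input, leaving out 1 culture turned the sign of ACSL3 (-0.51 to 0.035), FDPS (-0.68 to 0.066).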
